A study of Mus musculus with 12 samples.

Results

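The collagen genes were taken as all protein-coding genes of the count table whose symbol has the form Col, a number, a, a number. The rule found 44 genes among 35275, on 15 chromosomes. The rule reads only the symbol and the gene type. Collagens are the main structural proteins of the extracellular matrix. In each molecule, chains from the same or from related genes wind into a triple helix, and the molecules then assemble into fibrils, sheets or filaments outside the cell. In the gut wall the fibril-forming types make up much of the submucosa, type IV collagen forms the basement membranes under epithelium, endothelium and around muscle cells, and fibroblasts and smooth muscle cells are known as the main sources.

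RNA was sequenced from the ileum, the last stretch of the small intestine, of C57BL/6 mouse pups at postnatal day 14. Of the 6 dams, 3 had been held in a ventilated restraint tube while pregnant, for 2 h on each of gestational days 7 to 19, and the other 3 had been left undisturbed in their home cages. Each dam gave 1 male and 1 female pup, so that there were 4 groups of 3 libraries, named control or stressed after the dam. The design sets pups of stressed dams against pups of control dams within each sex. The dam is the unit that was stressed, and each litter is represented by a single pup of each sex.

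The libraries held between 16423523 and 22975526 counted reads. Some libraries stood apart from the others. Fabp1, a fatty acid binding protein of the upper small intestine, was at 1404 CPM (counts scaled to a fixed library total) in the male and 168 in the female of control dam 3, and at no more than 0.638 in the other 10 libraries. The ileal bile acid carrier Fabp6 was at 1.31 FPKM (a level scaled for library total and gene length) in control male 3, against 62.2 to 1303 FPKM elsewhere. Yam1, a noncoding RNA, took 4.13% of the counts in stressed male 3, 1.39% in stressed male 1 and 1.00% in control male 1, and at most 0.4998% in every other library. The share of mitochondrial genes was 1.16% for stressed male 3, 2.18% for stressed male 1 and between 3.01% and 4.59% for the other 10 libraries. Smooth muscle, fibroblast and mesothelial markers were detected in all 12 libraries. The summed level of 10 smooth muscle markers ran from 1586 FPKM in control male 3 to 3836 FPKM in control male 1, and the summed level of 6 mesothelial markers was 3.34 FPKM in control male 1, 4.14 FPKM in control male 2 and 4.89 FPKM in stressed male 3, and at least 20.1 FPKM elsewhere. The part of these differences in the results on collagen genes was not tested, except where a value without the libraries is given.

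Per gene length, the collagen genes spanned more than 5 orders of level. Col3a1 was the highest at 551 FPKM (mean of 12 libraries) and ranked 97th among all genes. Col1a1 followed at 277 FPKM (209th) and Col1a2 at 261 FPKM (223rd). These 3 chains made up 61.1% of the summed collagen FPKM. In all, 31 of the 44 genes had a mean of at least 1 FPKM, 16 of at least 10 FPKM and 6 of at least 100 FPKM. The 13 genes below 1 FPKM ran from 0.00340 to 0.763 FPKM. Enough counts for a test were present for 40 genes. Col9a3, Col10a1, Col2a1 and Col19a1 did not pass, of which Col2a1, Col9a3 and Col10a1 encode chains known from cartilage.

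**Figure D1:**
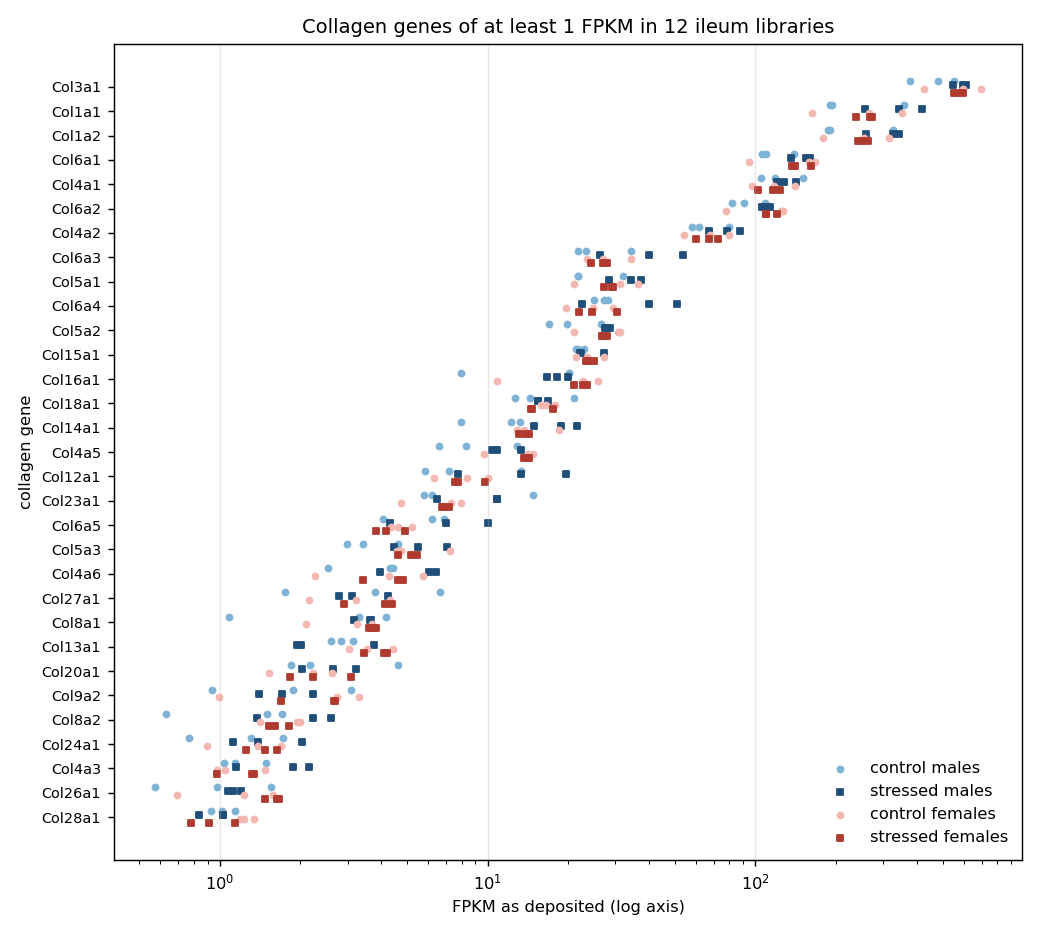
Level of each collagen gene with a mean of at least 1 FPKM (rows) in each of the 12 libraries, in FPKM as deposited on a log axis. Circles are pups of control dams and squares pups of stressed dams, with males in blue and females in red. Col3a1, Col1a1 and Col1a2 lie highest, and the group ranges of most genes overlap.

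The fibril-forming chains held 64.8% of the summed collagen FPKM. Type I collagen is built from Col1a1 (chr11:94936224-94953042, plus strand, GRCm38) and Col1a2 (chr6:4504814-4541543, plus strand) chains, and type III from Col3a1 (chr1:45311538-45349706, plus strand) alone. Type V chains, which start and limit the growth of type I fibrils, were lower, with Col5a1 at 29.2 FPKM, Col5a2 at 26.0 FPKM and Col5a3 at 4.99 FPKM. The minor fibril-forming chains Col27a1 and Col24a1 were at 3.62 and 1.39 FPKM, and Col11a1, Col11a2 and Col2a1 lay below 1 FPKM. Col1a1 had the widest range of the 3 highest chains, from 162 FPKM in control female 3 to 420.4 FPKM in stressed male 3, a ratio of 2.59. Col3a1 varied less, by a ratio of 1.84.

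Sequences before the start of the 2 most abundant genes with an entry in the RefSeq promoter table (GRCm38.p6) are shown to let their base make-up be compared. Capitals mark the motif TATAAA, the motif CCAAT or the motif GGGCGG on either strand. The Col3a1 stretch (chr1:45311388-45311537, plus strand, 150 bases) ends directly before the start, has 37.3% G and C and holds TATAAA. That motif lies nearer the far end of the stretch than the start. The Col1a2 stretch (chr6:4505368-4505492, plus strand, 125 bases) has 59.2% and holds GGGCGG at 2 places. It is the far part of the 250 bases before the RefSeq start, inside the longer gene model of the count table. The bases between it and that start are not shown, so the 2 stretches lie at unlike distances from their starts.
Col3a1: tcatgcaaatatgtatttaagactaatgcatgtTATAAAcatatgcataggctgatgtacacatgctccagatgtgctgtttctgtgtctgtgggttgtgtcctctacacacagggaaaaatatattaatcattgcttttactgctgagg
Col1a2: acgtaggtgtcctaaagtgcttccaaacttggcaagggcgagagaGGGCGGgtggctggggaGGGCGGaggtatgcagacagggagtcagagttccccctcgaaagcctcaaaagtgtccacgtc
All RefSeq promoters were cut to these lengths directly before the start. Of them, 7.57% held TATAAA or its reverse TTTATA in 150 bases and 26.9% held GGGCGG or CCGCCC in 125 bases. The Col1a2 stretch lies further from its start than that second window, so the 26.9% is not a like-for-like reference. Over the 250 bases before the start, 22 of 38 collagen promoter entries (57.9%) held GGGCGG, against 32.7% of 32851 entries in the table. CCAAT or ATTGG was in 34.2% of the collagen entries and 33.8% of all, and TATAAA in 13.2% and 12.4%. These 38 entries belong to 35 of the 44 genes. A match is a description of these letters and not a site of binding, and the motifs do not overlap one another in the sequences shown.

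Type IV collagen, the network of basement membranes, made up 11.8% of the summed collagen FPKM. The chains of ordinary basement membranes, Col4a1 and Col4a2, were at 122 and 69.4 FPKM. Col4a5 and Col4a6, which together form the network around smooth muscle, were at 11.9 and 4.40 FPKM, and Col4a3 and Col4a4, best known from the kidney filter, at 1.33 and 0.763 FPKM. The 6 type IV genes lie in 3 head-to-head pairs, each pair reading outward from a shared start region. The models of Col4a1 (chr8:11198423-11312826, minus strand) and Col4a2 (chr8:11312805-11449287, plus strand) overlap by 22 bases, those of Col4a4 and Col4a3 are 71 bases apart on chromosome 1, and those of Col4a6 and Col4a5 are 1308 bases apart on chromosome X. The shared bases of the first pair (chr8:11312805-11312826) and the gap of the second pair (chr1:82586850-82586920) are shown because a single short stretch lies between genes read in opposite directions. Both are read on the plus strand, and capitals have the meaning given above.
Col4a1 and Col4a2: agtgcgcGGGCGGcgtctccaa
Col4a4 and Col4a3: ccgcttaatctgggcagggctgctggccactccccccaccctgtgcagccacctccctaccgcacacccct
The 22 bases are exonic in both gene models and have 72.7% G and C. The 71 bases hold none of the 3 motifs, each of which 4.41% to 20.7% of all RefSeq promoters hold in a window of this length. The sources used here do not say whether reads were counted by strand, so reads within the 22 shared bases cannot be assigned to either gene.

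Type VI collagen, which forms beaded filaments between cells and fibrils, made up 17.4% of the summed FPKM. Col6a1 and Col6a2 were at 139 and 107 FPKM. Of the long chains that join them, Col6a3 was at 30.3 FPKM, Col6a4 at 28.7 FPKM, Col6a5 at 5.47 FPKM and Col6a6 at 0.316 FPKM. Fibril-associated chains, which decorate the surface of fibrils, held 2.74%, led by Col16a1 (19.1 FPKM), Col14a1 (14.6 FPKM) and Col12a1 (9.74 FPKM), with Col20a1 at 2.51 and Col9a2 at 2.11 FPKM. The multiplexins Col15a1 and Col18a1, proteoglycans of basement membrane zones, were at 23.5 and 16.1 FPKM. Col15a1 varied least of all 31 genes above 1 FPKM, by a ratio of 1.27 between its highest and lowest library. Among the membrane-spanning chains Col23a1 was at 7.97 FPKM and Col13a1 at 3.26 FPKM, and Col17a1, a chain of hemidesmosomes, stayed below 1 FPKM. The short chains Col8a1 and Col8a2 were at 3.28 and 1.69 FPKM, Col26a1 at 1.23 and Col28a1 at 1.05 FPKM.

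All collagen genes together took between 0.744% of the counts, in control female 3, and 1.26%, in stressed male 3. By group the share was 0.916% ± 0.205 in control males, 1.16% ± 0.110 in stressed males, 1.02% ± 0.255 in control females and 1.02% ± 0.0403 in stressed females (SD, n = 3 each). Control male 1, at 1.15%, lay inside the range of the stressed males, and the females of both groups overlapped. The log2 ratio of stressed to control was 0.358 in males and 0.0332 in females, and the SD of single libraries within groups was 0.257 on the same scale. Without the pups of control dam 3 the ratios were 0.295 and -0.175, and the female ratio was 0.198 without control female 2. A share over a chosen list is given without a test. In such tissue RNA, fewer collagen-making cells and less collagen RNA per cell cannot be told apart.

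Control and stressed males were compared first. No collagen gene passed the threshold in edgeR's quasi-likelihood test (adjusted p under 0.05 over 16102 genes), and no gene of the whole table did (0% of all genes tested). The smallest adjusted p of a collagen gene was 0.752. The estimates leaned to the stressed side: 34 of 40 genes had a log2 fold change above 0, against 51.7% of all genes, and the median was 0.284, against 0.0115 for all genes. The genes share the same 3 pups per group and are not separate replicates. The median deviation of collagen genes was 0.046 in control male 1 and -0.042 in stressed male 2, so the groups overlapped. Over libraries left out, 29 (without control male 2) to 36 (without control male 1) of the 40 were above 0. At an unadjusted p under 0.05 there were 3 collagen genes of 40, all higher in stressed males, where 6.38% of all genes were below that level. That number fell to 0 when stressed male 1 was left out. It was 10 when stressed male 2 was left out, 9 for control male 1 and 5 for control male 3. Col3a1, Col5a2 and Col17a1 had groups that did not overlap on the scale of normalised CPM, all higher in stressed males, where 5.67% of all genes did not overlap in either direction.

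Among the fibril-forming chains, Col1a1 was at 360.2, 193 and 190.0 FPKM in the control males, against 344, 257 and 420.4 FPKM in the stressed males. Control male 1 lay above 2 of the 3 stressed males, so the groups overlapped. The log2 fold change of Col1a1 was 0.43 ± 0.31 (SE, adjusted p = 0.778, edgeR). It was 0.76 without control male 1 and 0.23 without stressed male 3. Its partner Col1a2 was at 328, 187 and 189.6 FPKM in controls and at 325, 259 and 343 FPKM in stressed males, with the same high control library and a log2 fold change of 0.37 ± 0.25, which ran from 0.18 without control male 2 to 0.65 without control male 1. Col3a1 was at 550.0, 379 and 482 FPKM in control males and at 598, 612 and 549 FPKM in stressed males. Control male 1 and stressed male 3 were level on this scale, while after normalisation the lowest stressed library (3187 CPM) lay above the highest control (3066 CPM). Its log2 fold change was 0.27 ± 0.20 (adjusted p = 0.79) and 0.0785 without control male 2.

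Of the type V chains, Col5a2 was at 26.5, 19.7 and 16.9 FPKM in control males and at 27.5, 28.2 and 28.7 FPKM in stressed males, so that the stressed males lay close together and above all controls. Its log2 fold change was 0.38 ± 0.16 (edgeR, unadjusted p = 0.0355, adjusted p = 0.752). It ran from 0.28 without control male 2 to 0.55 without control male 1. Col5a3 was at 3.42, 2.99 and 4.62 FPKM in controls and at 5.50, 7.06 and 4.46 FPKM in stressed males, with 1 pup of each group in the range of the other, and a log2 fold change of 0.56 ± 0.24 (unadjusted p = 0.0404). Col5a1 was at 32.1, 21.7 and 21.7 FPKM against 34.2, 28.4 and 37.4 FPKM, a log2 fold change of 0.37 ± 0.21. Without control male 2 the values were 0.37 for Col5a3 and 0.22 for Col5a1, and Col5a3 was at 0.84 without control male 3. Of the 10 fibril-forming chains tested, 9 had a positive estimate and Col27a1 a negative one, -0.27 ± 0.37.

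Col14a1, a fibril-associated collagen that binds to the surface of type I fibrils, had the largest estimate and the smallest p of all collagen genes in males. It was at 12.3, 7.95 and 13.2 FPKM in controls and at 21.6, 14.9 and 18.8 FPKM in stressed males. On this scale the groups stood apart, but after normalisation control male 3 (97.1 CPM) lay above stressed male 2 (93.9 CPM). The log2 fold change was 0.67 ± 0.23 (unadjusted p = 0.0134, adjusted p = 0.752). Over the libraries left out in turn it ranged from 0.43, without control male 2, to 0.89, without control male 3, and it was 0.35 without the 3 libraries richest in Yam1. Col12a1, of the same class, was at 13.3, 7.15 and 5.85 FPKM against 13.3, 7.79 and 19.7 FPKM, which overlapped.

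**Figure D2:**
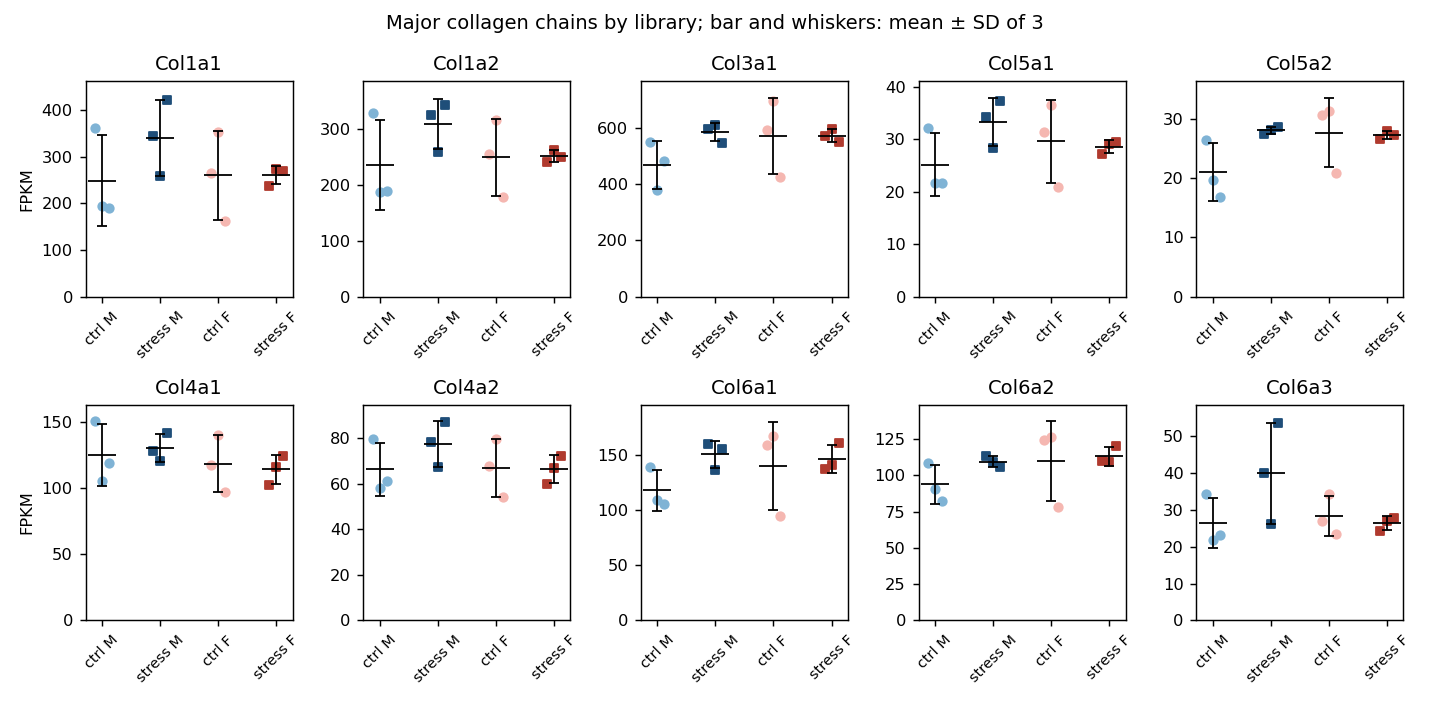
FPKM of 10 major chains of types I, III, IV, V and VI in each library (points), with the mean of each group (bar) and its SD (whiskers, n = 3). Axes start at 0. In all 10 panels control male 1 is the highest control male and control female 3 the lowest female.

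In the type IV network Col4a1 was at 151, 105 and 119 FPKM in control males and at 127, 121 and 142 FPKM in stressed males, with a log2 fold change of 0.02 ± 0.19. Col4a2 was at 79.6, 58.2 and 61.3 FPKM against 78.3, 67.3 and 87.4 FPKM, a log2 fold change of 0.19 ± 0.18 that was 0.047 without control male 2 and 0.31 without control male 1. Both pairs of groups overlapped. All 6 type IV genes had estimates above 0 in males, up to 0.61 for Col4a4. The sign of Col4a1 did not hold: it was -0.15 without control male 2, -0.077 without stressed male 3 and -0.0022 without stressed male 1.

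Of the type VI chains, Col6a1 was at 139, 109 and 106 FPKM in control males and at 160.1, 136 and 155 FPKM in stressed males, a log2 fold change of 0.31 ± 0.20. Col6a2 was at 108, 90.9 and 82.1 FPKM against 113, 109 and 106 FPKM, a log2 fold change of 0.19 ± 0.17. Col6a3 was at 34.2, 21.8 and 23.3 FPKM against 39.99, 26.2 and 53.5 FPKM, with the top value in stressed male 3 and a log2 fold change of 0.57 ± 0.26 (unadjusted p = 0.0528), which was 0.27 without stressed male 3. Without control male 2, Col6a1 was at 0.20 and Col6a2 at 0.10. All 6 type VI genes were positive, with a median of 0.293. The fifth smallest p in males belonged to Col25a1, a membrane-spanning chain below 1 FPKM, at 0.58 ± 0.31, and at 0.18 without stressed male 1.

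**Figure D3:**
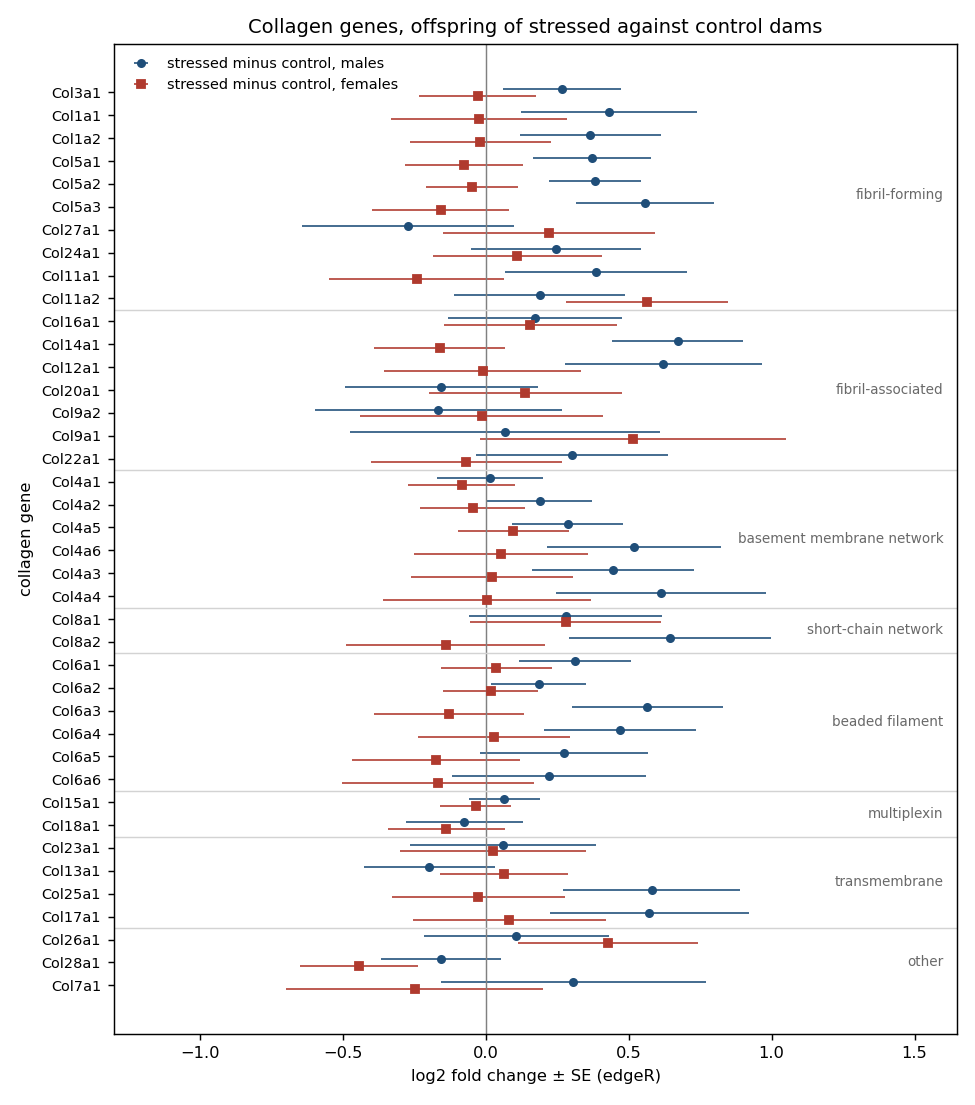
log2 fold change of 40 collagen genes (rows, grouped by class), stressed minus control, in males (circles) and females (squares), with the SE from edgeR. The male estimates lie mostly to the right of 0 with a median of 0.284 and the female estimates around it with a median of -0.016, and no gene passes the threshold in either sex.

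Collagen genes are long, and gene length moved with the estimates in males. The tested collagen genes had a median length of 6394 bases, against 3028 for all genes tested, and 31 of 40 were at least 5000 bases long. The 20 collagen genes of at most median length had a median log2 fold change of 0.179 (15 above 0), and the 20 longer ones 0.377 (19 above 0). Stressed male 3 was the highest library for 12 of the 40 genes, whose median length was 7897 bases. With the counts of each library corrected for their trend over gene length, an alternative chosen after the data were seen, the median of the collagen genes in males was 0.0846, with 25 of 40 above 0, and that of all genes was -0.0246. Col14a1 was then at 0.47 and Col5a3 at 0.42, while Col5a2 and Col6a3 were at 0.19 and Col4a1 at -0.18. Without the 3 libraries richest in Yam1, which leaves a single stressed male assumed to vary like the other groups, the median was 0.213 with 27 of 40 above 0, and without control dam 3 it was 0.258 with 30 above 0.

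**Figure D4:**
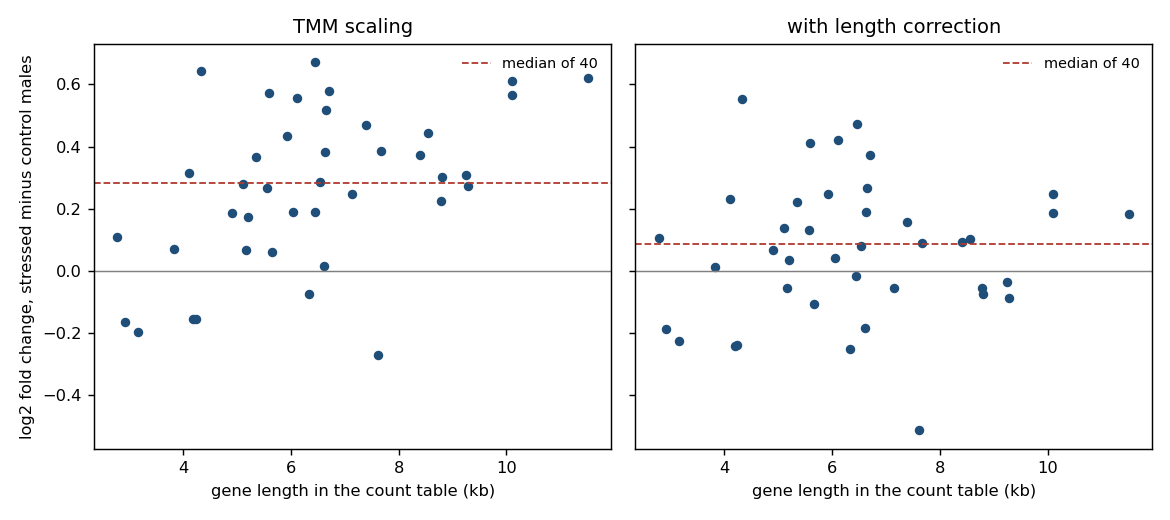
log2 fold change of 40 collagen genes in males (stressed minus control) against gene length in kilobases, with normalisation for library composition alone (left) and with the added length correction (right). The dashed line is the median of the 40 genes, 0.284 on the left and 0.0846 on the right.

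In females the 2 groups lay closer together. No collagen gene passed the threshold (0% of all genes), the smallest adjusted p was 1, and no collagen gene had an unadjusted p under 0.05, as had 0.298% of all genes. The median log2 fold change was -0.016 (all genes -0.0046), and 18 of 40 genes were above 0, against 48.5% of all genes. Col1a1 was at 265, 352 and 162 FPKM in control females and at 238, 273 and 268 FPKM in stressed females, so that all stressed pups lay between the highest and lowest control. Its log2 fold change of -0.02 had a 95% interval from -0.70 to 0.65. Col3a1 was at 594, 696 and 428 FPKM in controls and at 572, 597 and 551 FPKM in stressed females, with a log2 fold change of -0.03 and an interval from -0.47 to 0.42. The same order, with control female 2 high and control female 3 low, was seen in Col1a2, Col5a1, Col5a2, Col6a1 and Col4a1. For Col5a2 the controls were at 30.7, 31.3 and 21.0 FPKM and the stressed females at 26.7, 27.9 and 27.3 FPKM.

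The 5 female genes of smallest p were all low in level. Col28a1, a collagen known from peripheral nerve, was at 1.34, 1.19 and 1.23 FPKM in control females and at 0.779, 0.909 and 1.14 FPKM in stressed females. The groups did not overlap, and the log2 fold change was -0.44 ± 0.21 (unadjusted p = 0.0542, adjusted p = 1). Col11a2, a cartilage fibril chain with 11 to 32 counts per library, was at 0.158, 0.112 and 0.140 FPKM against 0.242, 0.187 and 0.196 FPKM, again without overlap, at 0.56 ± 0.28. These were 2 of 40 genes without overlap, where 5.56% of all genes had none. Col26a1, Col9a1 and Col8a1 had estimates of 0.43, 0.52 and 0.28. Without control female 3 Col26a1 was at 0.19 and Col8a1 at 0.11, and without stressed female 3 Col9a1 was at 0.27. The direction of the female median depended on single libraries. It was -0.149 without control female 3, with 6 of 40 genes above 0, then 0.119 without control female 2, with 32 above 0, and 0.0205 without stressed female 1.

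Whether the change differed between the sexes was tested as an interaction. No collagen gene passed (0% of all genes), and the smallest adjusted p was 0.999. The median difference, male change minus female change, was 0.331, with 33 of 40 above 0, where 50% of all genes were above 0. Col14a1 alone had an unadjusted p under 0.05, where 2.15% of all genes did. Its difference was 0.83 ± 0.32 (edgeR, unadjusted p = 0.0256, adjusted p = 0.999). In females Col14a1 was at 13.6, 18.4 and 12.9 FPKM in controls and at 14.2, 13.9 and 13.1 FPKM in stressed pups, values that overlapped. Col5a3 (0.71), Col5a2 (0.43), Col6a3 (0.69) and Col8a2 (0.78) followed. With the length correction Col6a3 was at 0.22 and Col5a2 at 0.18. Col6a3 was at 0.39 without stressed male 3, Col8a2 at 0.43 without control male 2, and Col5a3 at 0.47 without control female 2. The median fell to 0.145 without control female 2, to 0.205 without stressed male 3, to 0.195 without the 3 libraries richest in Yam1 and to 0.0171 with the length correction.

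Males were then compared with females over both treatments. Of all genes tested, 8 passed (0.0497%), none of them a collagen gene. The median of the collagen genes was 0.0439, with 24 of 40 above 0, where 49.4% of all genes were above 0. It was -0.0862 with the length correction and -0.129 without the 3 libraries richest in Yam1. At an unadjusted p under 0.05 there were 4 collagen genes of 40, where 12% of all genes were below it, and no collagen gene had groups without overlap, against 0.255% of all genes. Col6a5 and Col6a4, alternative long chains of type VI, were higher in males. Col6a5 was at 6.88, 4.07 and 6.21 FPKM in control males and 7.02, 4.31 and 10.02 FPKM in stressed males, against 3.84 to 5.22 FPKM in the 6 females. Its log2 difference was 0.58 ± 0.21 (adjusted p = 0.411). Col6a4 had a log2 difference of 0.41 ± 0.19, with 40.04 and 50.8 FPKM in stressed males 1 and 3 and 19.6 to 30.5 FPKM in the other 10 libraries. Col13a1, a membrane-spanning chain, was lower in males at -0.42 ± 0.16, and the X-linked Col4a5 at -0.32 ± 0.14.

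For these chains 1 library decided the call. Stressed male 2 had 4.31 FPKM of Col6a5 and 3.78 FPKM of Col13a1, whereas stressed males 1 and 3 had 2.02 and 1.94 FPKM of Col13a1. Without stressed male 2 the log2 differences were 0.73 for Col6a5, 0.57 for Col6a4 and -0.58 for Col13a1, and all 3 passed the threshold (adjusted p = 0.0373, 0.0373 and 0.0346). In that fit 1384 of 16389 genes (8.44%) passed. Without the 3 libraries richest in Yam1 the values were 0.13 for Col6a5, 0.0029 for Col6a4 and -0.15 for Col13a1. Without stressed male 3 alone they were 0.40 for Col6a5 and 0.26 for Col6a4. With the length correction Col6a5 was at 0.25, Col6a4 at 0.18 and Col13a1 at -0.39.

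With the litter as replicate, counts of brother and sister were summed and 3 stressed litters were compared with 3 control litters. No collagen gene of 41 tested passed (0% of 16749 genes), the smallest adjusted p rounded to 1, and none had an unadjusted p under 0.05, where 1.36% of all genes did. The median was 0.146, with 31 above 0, against 51.3% of all genes. Col14a1 had the smallest p, at 0.23 ± 0.10 (edgeR, unadjusted p = 0.055). The litters hold the same male pups as the test in males, so this is not a separate observation. The estimate of Col14a1 in females was -0.16. Col4a4 (0.30 ± 0.16) and Col11a2 (0.40 ± 0.21) were higher in every stressed litter and Col28a1 (-0.32 ± 0.14) lower in every one. These were 3 of 41 genes, where 5.74% of all genes had no overlap. Without control litter 1 Col4a4 was at 0.17. Col4a3, the head-to-head neighbour of Col4a4, was the fifth gene by p. With the length correction, Col14a1 was at 0.16, Col4a4 at 0.18, Col4a3 at 0.12, Col11a2 at 0.35 and Col28a1 at -0.35 over litters. The median was 0.0262 without control litter 3, 0.0577 without stressed litter 3 and 0.226 without control litter 1. In the authors' deposited table no collagen gene had an adjusted p under 0.05 in males (smallest 0.99993), females (1) or both sexes together (0.9996).

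Chains of the same molecule, and Col3a1 with Col1a1, were compared as ratios within a library, where the scaling of the library cancels. Over the 12 libraries the ratio of Col1a1 to Col1a2 FPKM ran from 0.912 to 1.23 and the ratio of Col4a1 to Col4a2 from 1.62 to 1.94. Col6a1 to Col6a2 lay between 1.20 and 1.46, Col5a1 to Col5a2 between 1.00 and 1.30, and Col3a1 to Col1a1 between 1.31 and 2.63. The wider ratios were those of Col4a5 to Col4a6 (1.62 to 4.29), of Col6a3 to Col6a1 (0.170 to 0.346) and of Col8a1 to Col8a2 (0.722 to 5.29). Over 8 ratios and 4 comparisons, 0 of 32 differences passed the threshold in exact 2-sided tests, adjusted by Benjamini and Hochberg (smallest adjusted p = 0.667). Stress was tested by permutation of 3 against 3, and males against females by sign flips over littermate pairs. A comparison of 3 against 3, as in 24 of the 32, cannot give a p below 0.1. The sign flips have a floor of their own, and with both floors no adjusted p under 0.05 was possible. The 0 of 32 was therefore fixed in advance and says nothing about the ratios.

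The ratio of Col4a1 to Col4a2, chains of 1 molecule transcribed from a shared start, was 1.89, 1.80 and 1.94 in the control males, against 1.63, 1.79 and 1.62 in the stressed males. In control females it was 1.74, 1.76 and 1.79, and in stressed females 1.70, 1.73 and 1.72. Every stressed pup lay below every control pup of its sex. The gap was narrow for stressed male 2 (1.792 against 1.803 in control male 2). It was also narrow for stressed female 2 (1.729 against 1.737 in control female 1). The log2 difference was -0.162 in males, -0.0405 in females and -0.101 over litters, each at p = 0.1 by the exact permutation test, the smallest it can give. The litters hold the same pups as the sexes, so the third value is not a separate observation. The gene lengths of Col4a1 (6615) and Col4a2 (6450) are close. The ratio of Col8a1 to Col8a2 was 1.68, 1.86 and 1.49 in control females and 2.52, 1.99 and 2.33 in stressed females, a log2 difference of 0.445 at the same exact p of 0.1, while in males it ran from 0.722 to 5.29 in the controls alone. These 4 of 24 comparisons of 3 against 3 were the ones without overlap. A random split of 3 against 3 lacks overlap at a rate of 0.1, and no share over other gene pairs was computed. The count is therefore not read as a result about these ratios.

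**Figure D5:**
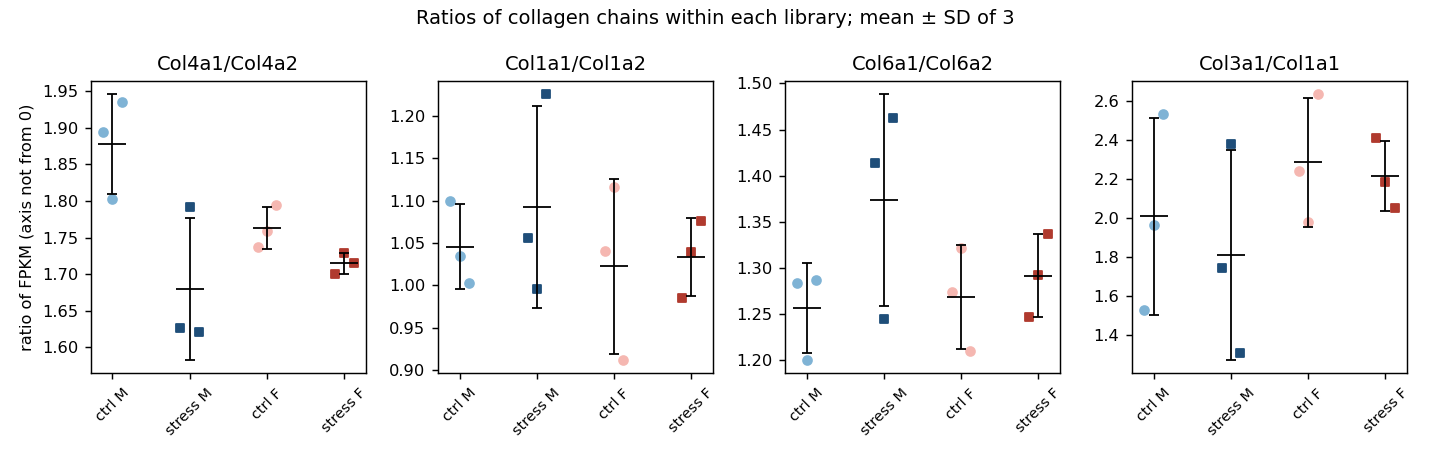
Ratio of FPKM between collagen chains, 4 pairs, in each library (points), with the group mean (bar) and SD (whiskers, n = 3). The vertical axes do not start at 0. For Col4a1 to Col4a2 the 3 stressed males (1.62 to 1.79) lie below the 3 control males (1.80 to 1.94), and for the other 3 ratios shown the stressed and control groups of each sex overlap.

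The genes that fold, process and bind collagen were examined as lists. Of 20 genes for chain folding and modification in the endoplasmic reticulum, P4hb (prolyl hydroxylase subunit and disulfide isomerase, 614 FPKM), Pdia3 (disulfide isomerase, 240.5 FPKM) and Serpinh1 (the collagen chaperone HSP47, 121 FPKM) were the highest. None of the 20 passed the threshold in any comparison of all libraries. Their median log2 fold change was 0.127 in males (15 above 0) and 0.0224 in females (13 above 0), and between males and females 3 were above 0 and 17 below, with a median of -0.119. P4ha2, a prolyl hydroxylase subunit, was at 2.07 to 3.40 FPKM in the 6 males and at 3.22 to 4.22 FPKM in the 6 females, a log2 difference of -0.38 ± 0.10 (adjusted p = 0.411), with no overlap after normalisation. P4ha2 was picked by smallest p, and 0.255% of all genes lacked overlap between the sexes. Lepre1, which hydroxylates other prolines of the chain, was at -0.37 ± 0.12. In the fit without stressed male 2 both passed (adjusted p = 0.0425 and 0.0362, edgeR), where 8.44% of all genes did.

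Of 15 genes for cutting and cross-linking of collagen outside the cell, 14 were tested in each sex and none passed with all libraries. Lox and Loxl1, the oxidases that start cross-links, had the smallest p in males. Lox was at 8.95, 7.43 and 4.93 FPKM in control males and at 10.3, 10.9 and 10.5 FPKM in stressed males, without overlap, a log2 fold change of 0.55 ± 0.18 (unadjusted p = 0.011, adjusted p = 0.752). Loxl1 was at 14.3, 9.35 and 9.20 FPKM against 15.2, 16.3 and 17.3 FPKM, also without overlap, at 0.53 ± 0.18. Both were picked by smallest p, and 5.67% of all genes lacked overlap between the male groups. In females Lox was at 11.1, 11.7 and 7.05 FPKM in controls and at 10.5, 10.4 and 10.02 FPKM in stressed pups, and the difference between sexes had an unadjusted p of 0.0624 for Lox. The list's median was 0.162 in males (8 above 0) and -0.0024 in females (6 above 0). Pcolce, an enhancer of the cutting of procollagen, was lower in males than in females at -0.47 ± 0.15. Without stressed male 2 it passed (-0.63, adjusted p = 0.0346, edgeR), as did Adamts3, which cuts procollagen (0.76, adjusted p = 0.0493). Of all genes, 8.44% passed in that fit. Tgm2, a cross-linking transglutaminase, was lower in every stressed litter at -0.26 ± 0.13, and at -0.11 without control litter 3. Of all genes, 5.74% lacked overlap between the litter groups.

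Of 16 matrix proteins that bind collagen or share its basement membranes, Sparc (499 FPKM), Dcn (decorin, 196 FPKM) and Postn (periostin, 88.3 FPKM) were the highest. Their median in males was 0.322, with 13 above 0, where 51.7% of all genes were above 0. That was close to the collagen median of 0.284, which the length correction lowered to 0.0846. No length-corrected median was computed for this list. Nid2, a link protein of basement membranes, was at 10.3, 12.4 and 12.3 FPKM in control males and at 14.8, 14.5 and 16.37 FPKM in stressed males, at 0.34 ± 0.13 without overlap (adjusted p = 0.752), and Dcn was at 0.37 ± 0.17, or 0.21 without control male 2. Nid2 was picked by smallest p, and 5.67% of all genes lacked overlap between the male groups. In females the median of the list was -0.012, with 7 above 0. Fn1 (fibronectin) was the only gene of the list with an unadjusted p under 0.05 for the difference between sexes, at 0.52 ± 0.23. None of the 16 passed in any comparison of all libraries. Between males and females, Lum, a proteoglycan of fibrils (-0.57, adjusted p = 0.0354, edgeR), and Hspg2, the perlecan of basement membranes (0.91, adjusted p = 0.0397), passed without stressed male 2. Of all genes, 8.44% passed in that fit.

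Of 10 collagen receptors, 9 were tested, led in level by Itgb1 (168 FPKM), the shared integrin chain. Itga2, the integrin chain that pairs with it in epithelium and platelets, was at 2.62, 8.28 and 3.78 FPKM in control males and at 8.36, 7.72 and 9.83 FPKM in stressed males, which overlapped, at 0.79 ± 0.33. Its estimate ran from 0.48 without control male 1 to 1.31 without control male 2. The list's median was 0.0685 in males and -0.031 in females. Of 12 genes of transforming growth factor beta signalling, a pathway known to raise collagen transcription, Smad7, its feedback inhibitor, was at 10.02, 9.26 and 11.7 FPKM in control males and at 6.46, 8.58 and 7.77 FPKM in stressed males. The groups did not overlap, and the log2 fold change was -0.50 ± 0.16 (unadjusted p = 0.00793, adjusted p = 0.752), and -0.32 without control male 3. Smad7 was picked by smallest p, and 5.67% of all genes lacked overlap between the male groups. The median of the 12 was 0.025 in males and -0.034 in females. No gene of either list passed in any comparison of all libraries. Without stressed male 2, Itga1, Ctgf and Tgfbr1 passed between males and females (adjusted p = 0.0424, 0.0346 and 0.0491, edgeR), where 8.44% of all genes did.

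Levels of the collagen genes were set beside those of cell types. For each library, the median over 38 collagen genes of the deviation from the mean of the 12 libraries (log2) was lowest in control female 3 (-0.37) and control male 2 (-0.28) and highest in stressed male 3 (0.36) and stressed male 1 (0.20). The smooth muscle markers were at -0.21 in control female 3, -0.62 in control male 2, -0.42 in control male 3 and 0.72 in control male 1. In stressed male 3 they were at -0.38 and the fibroblast markers at -0.45, so there the collagen genes were high while both marker lists were low. Stressed males 3 and 1 are also the libraries of lowest mitochondrial share, whose part in the estimates was not tested. Over groups, 5 of 10 smooth muscle markers and 7 of 10 fibroblast markers were above 0 in stressed against control males, with medians of -0.014 and 0.108. In females 8 of 10 and 4 of 10 were above 0, with medians of 0.075 and -0.046. None of these markers passed the threshold in either sex, and their part in the estimates of the collagen genes was not tested. The same holds for 6 mesothelial markers, all above 0 in males with a median of 0.982, and for 9 endothelial markers, of which 8 were below 0 in males with a median of -0.273.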

How the data were processed

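Ileal RNA of 12 pups was measured, in 4 groups of 3. The deposited table holds raw counts of reads per gene, and the authors' second table holds FPKM for the same genes. The authors' table of comparisons holds log2 fold changes and, per the file headers, p-values. Per the submitters' processing notes, the tools were edgeR 3.16.5, DESeq2, HTSeq 0.6.1, STAR 2.5 and TopHat, with the builds mm10 and GRCm38. No source used here gives an annotation release. The number of per-sample columns that matched no sample was 0.

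Group comparisons used edgeR 4.0.16 under R 4.3.3, with filterByExpr, TMM scaling and the quasi-likelihood test, in a fit of all 4 groups with 8 residual degrees of freedom, and over litters with 4. Adjustment (Benjamini and Hochberg) ran over all genes tested. Overlap of groups was read on TMM-scaled CPM, and SE is the fold change divided by the root of F. Deviations use log2 CPM with a prior count of 2 and genes of at least 1 CPM. The test was checked on simulated data. No library was a copy of another. In the fit of 4 groups, p-values measure the spread between single pups, each of another dam within its group. There the contrast of males with females does not pair littermates. Over litters, p-values measure the spread between litters.

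Littermates pair by the labels (correlation of their deviations -0.482 to 0.593), while a number shared by a stressed and a control dam is only a number. As alternatives, DESeq2 1.42.0, its size factors, limma-voom (limma 3.58.1), limma on FPKM logged with pseudocounts of 1 and 0.1, filters of none and of 1 CPM on average, 1 sex alone, blocks by dam, and each library left out were run. Chosen after seeing the data were the length correction (loess, span 0.5) and the fits without control dam 3 and without the 3 libraries richest in Yam1.

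The collagen genes, gene lists and tests were chosen with earlier results of these data known. Named were all collagen genes of at least 1 FPKM, 10 major chains, the 5 collagen genes of smallest p per comparison, and per list the 2 genes of smallest p or the 3 of highest FPKM, of which some are left out for brevity. Others below 1 FPKM were named after their values were seen.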

Additional observations from a re-analysis of the deposited data

How the results depend on the processing

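No collagen gene was past the threshold under any alternative run in males, females, the difference between sexes or litters, and 3 passed between males and females without stressed male 2 (range 0 to 3 over the libraries left out). The count over all genes between males and females was 18 with DESeq2 and 5 without the 3 libraries richest in Yam1, against 8, and over libraries left out it ran from 8 to 1384. In males it was 0 to 1 over all genes. The collagen median in males was 0.0846 with the length correction and its difference between sexes 0.0171. The estimate of Col4a1 in males changed sign with the length correction (-0.18), without the 3 Yam1-rich libraries (-0.023) and over libraries left out (-0.15 to 0.138), and that of Col4a2 was -0.016 with the length correction. Without the 3 Yam1-rich libraries the sign also changed for Tgfbr1 in males (-0.11) and in the difference (-0.067), and between the sexes for Col23a1 (-0.067), Itga1 (-0.061) and Ddr2 (-0.059). The cause was not tested. With the dam number as a replicate block the male median was 0.292, and with littermates paired in a block the median between sexes was 0.0195 and the difference 0.305, and no call changed. Of the 32 differences of chain ratios, 17 changed sign when a library was left out. The 4 without overlap kept theirs, which for those within a sex follows from the lack of overlap and adds no support. With 3 pups in a group, the median SE of a collagen gene was 0.299 in males.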
